A study of Homo sapiens with 50 samples.

Results

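The effect of the WNT secretion inhibitor IWP2 in the presence of sodium bicarbonate (NaHCO3) was examined on day 5 of cardiac differentiation of H1 cells, an established, unmodified (labelled wild-type) line of human embryonic stem cells. Cultures given IWP2 and NaHCO3 were set against cultures given NaHCO3 alone, with 2 RNA-seq libraries in each group out of 50 libraries in the series. The 4 libraries held 21686555 and 19521886 gene counts with IWP2 and NaHCO3, and 16999398 and 18064139 with NaHCO3 alone. Of 57905 genes in the tables, 14130 had at least 1 FPKM (fragments per kilobase of gene length, scaled to library size) in 2 or more of these 4 libraries and form the gene set described here. They held 99.16% of the counts of the 4 libraries, and 12524 of them were at or above 1 FPKM in every library. Cultures given IWP2 alone and the labelled differentiation control, 2 libraries each on the same day, served to ask whether NaHCO3 altered the IWP2 effect, and the same 2 NaHCO3 treatments on day 3 served to follow it in time. All groups share the differentiation protocol. Doses, times of addition and pH readings are not in the labels, nor is a statement that replicates came from separate cultures. A p-value thus sets a difference only against the spread between replicate libraries, estimated over all groups fitted, which may be technical.

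WNT proteins are lipid-modified by the acyltransferase porcupine, encoded by PORCN, before the carrier WLS takes them to the cell surface. IWP2 inhibits porcupine, so cells stop releasing active WNT ligands. At a receiving cell, Frizzled and LRP receptors stabilise beta-catenin, which acts with TCF/LEF factors on target genes, many of which encode feedback inhibitors. In differentiating pluripotent cells, WNT signalling first drives formation of the primitive streak and mesendoderm and of posterior mesoderm marked by CDX and HOX genes, and blocking it afterwards is the usual way to direct mesoderm to heart muscle. NaHCO3 is a base and buffer. No group was given another base or a sodium salt, so effects of pH, bicarbonate and sodium cannot be told apart.

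With IWP2 added to NaHCO3, 10 of 14 measured sarcomere genes and 10 of 20 heart transcription factors rose, while 6 of 12 CDX and HOX genes, 7 of 17 fibroblast and matrix genes, 2 of 5 WNT ligands and 2 of 12 WNT feedback targets fell. Calls needed an adjusted p under 0.05 in edgeR's quasi-likelihood test (Benjamini-Hochberg over all 17286 genes fitted) together with a log2 fold change of 1 or more in either direction, and "rose" and "fell" are used only of called genes. Of the 14130 genes, 338 rose and 358 fell, 696 in all or 4.93%, with 2.39% rising and 2.53% falling. The median log2 fold change over all 14130 genes was -0.005. The change was at least 4-fold for 135 of the genes that rose and 96 of those that fell. A further measure without a test was whether the FPKM of one group lay wholly above those of the other, which held for 66.5% of the genes, so that non-overlap of 2 against 2 libraries sets little apart on its own. Some genes passed the 1 FPKM minimum through a single group: 371 reached it in both libraries with IWP2 and NaHCO3 and in neither with NaHCO3 alone, and 310 the reverse. Since such genes had to differ, these counts are a description. Lists that hold several of them, and some that hold 1, are also given without them. These libraries are bulk RNA, so fewer cells of a type and less RNA per cell cannot be told apart in any result below. A library that enters the fit only through the shared spread, the first of day 3 with IWP2, NaHCO3 and 2-DG, had 26.1% of its counts in its 100 highest genes, against 19.1% to 21.5% in the others. The fit on day 5 alone, which leaves it out, called 737 genes.

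**Figure D1:**
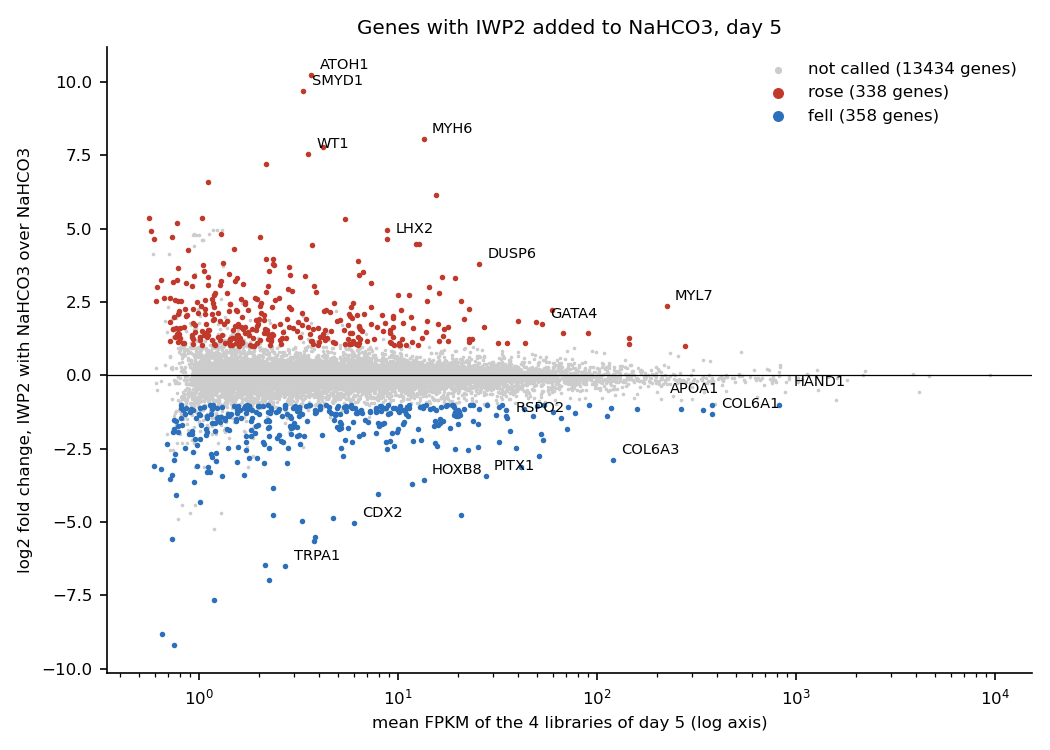
Log2 fold change of IWP2 with NaHCO3 over NaHCO3 alone on day 5 (vertical axis) against the mean FPKM of the 4 libraries (horizontal log axis) for 14130 genes. Red points are the 338 genes that rose, blue points the 358 that fell, and grey points the 13434 that were not called; MYH6, SMYD1, ATOH1 and WT1 lie among the highest points, TRPA1 and CDX2 among the low ones.

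Marker levels placed the cultures away from the labelled cell type of embryonic stem cell. POU5F1, the core pluripotency factor OCT4, was at 4.09 and 2.8 FPKM with IWP2 and NaHCO3, against 3.87 and 4.48 FPKM with NaHCO3 alone, and at 738 and 769.7 FPKM in undifferentiated cells of the other table. NANOG, another pluripotency factor, was at or below 0.07 FPKM in all 4 libraries of day 5. Markers of heart muscle (MYL7, TNNT2), liver-type endoderm (APOA1, HNF4A), fibroblasts (COL1A1, COL3A1) and vessel progenitors (KDR, TEK) were all at 12.6 FPKM or more in each of the 4 libraries. In undifferentiated cells KDR was already at 27.3 and 27.01 FPKM, so that level does not set it apart, while the others were at 1.97 FPKM or less. Other markers of the same cell types were lower on day 5: MYH6, ACTN2 and NKX2-5 were at 1.45 FPKM or less with NaHCO3 alone, the liver-type marker AFP lay between 2.11 and 3.66 FPKM, and the endothelial marker CDH5 was at 1.04 FPKM or less. The blood marker HBZ and the neural marker SOX1 were at 0 in all 4, and GATA1, PAX6 and the endothelial gene TIE1 were at 0.42 FPKM or less. Another blood marker, HBE1, was higher, at 6.86 and 4.56 FPKM with IWP2 and NaHCO3, against 9.01 and 7.57 FPKM with NaHCO3 alone.

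PORCN, the target of IWP2, was at 5.19 and 4.56 FPKM with IWP2 and NaHCO3, against 5.65 and 5.7 FPKM with NaHCO3 alone and was not called. WLS was at 122 and 126 FPKM with IWP2 and NaHCO3, against 116 and 116 FPKM with NaHCO3 alone, also not called, with a log2 fold change of 0.03 (SE 0.104). Of 20 WNT secretion, receptor and R-spondin genes measured, 1 rose and 1 fell, with a median log2 fold change of 0.088. Without the fold minimum, 6 of the 20 passed the adjusted p with higher levels and 3 with lower ones, where 1826 of all 14130 genes passed. The gene that rose was FZD1, a Frizzled receptor, at 6.32 and 6.69 FPKM with IWP2 and NaHCO3, against 2.07 and 2.21 FPKM with NaHCO3 alone (log2 fold change 1.54, SE 0.141, adjusted p = 1.82e-07). The gene that fell was RSPO2, a secreted R-spondin that strengthens WNT responses, at 17.6 and 21.6 FPKM with IWP2 and NaHCO3, against 51.2 and 51.4 FPKM with NaHCO3 alone (log2 fold change -1.45, SE 0.13, adjusted p = 1.38e-07). For both genes the libraries of one group lay above those of the other. LGR4, an R-spondin receptor, was at 96.2 and 93.1 FPKM with IWP2 and NaHCO3, against 88.4 and 82.3 FPKM with NaHCO3 alone and was not called.

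Among the 5 WNT ligands measured, 2 fell and 1 rose, with a median of -0.646. WNT5A, a ligand of mostly beta-catenin-independent signalling, fell to 12.7 and 12.5 FPKM with IWP2 and NaHCO3, against 39.97 and 36.2 FPKM with NaHCO3 alone (log2 fold change -1.66, SE 0.146, adjusted p = 1.21e-07). An antisense gene, WNT5A-AS1, overlaps WNT5A, and the strand setting of the counting is not given in the sources used here, so the share of each is uncertain. Other genes named here likewise overlap a gene of the opposite strand, among them POU5F1, WLS, WNT5B, WNT11, HOXB2, TDGF1, HAND2, ISL1, TBX2, CACNA1D, HNF4A, ACTA2, FAS, BMP6, PDK1, P4HA2, PITX1 and RP11-256I9.2. TNNT2, TTN, HOXB6 and HOXB8 overlap LAD1, CCDC141, HOXB3 and HOXB7 on the same strand. WNT5B, a close relative of WNT5A, fell as well (4.63 and 5.32 with IWP2 and NaHCO3 against 10.8 and 10.3 FPKM in NaHCO3 alone, log2 fold change -1.15). WNT6 rose (2.33 and 1.5 with IWP2 and NaHCO3 against 0.59 and 0.81 in NaHCO3 alone, log2 fold change 1.39), a call that was lost when the first IWP2 with NaHCO3 library (adjusted p = 0.228) or either NaHCO3 library (adjusted p = 0.173 and 0.0587) was left out. WNT11 and WNT3 were not called, at log2 fold changes of -0.65 and -0.61.

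Of 12 direct feedback targets of beta-catenin measured, 2 fell and none rose, and the median log2 fold change was -0.241. NKD1, an intracellular WNT antagonist induced by the pathway, was at 2.98 and 3.23 FPKM with IWP2 and NaHCO3, against 8.74 and 8.95 FPKM with NaHCO3 alone (log2 fold change -1.57, SE 0.198, adjusted p = 1.13e-05). APCDD1, a membrane antagonist, was at 0.82 and 0.67 FPKM with IWP2 and NaHCO3, against 3.3 and 3.64 FPKM with NaHCO3 alone (log2 fold change -2.27, SE 0.164, adjusted p = 8.19e-09). In both, the 2 groups did not overlap and the IWP2 group was the lower. APCDD1 reached 1 FPKM only with NaHCO3 alone, and of the other 11 genes 1 fell, with a median of -0.19. AXIN2, a scaffold of the beta-catenin destruction complex, was at 4.46 and 4.47 FPKM with IWP2 and NaHCO3, against 7.19 and 7.68 FPKM with NaHCO3 alone, and LEF1, a beta-catenin partner, at 22.6 and 23.6 FPKM with IWP2 and NaHCO3, against 40.01 and 38.1 FPKM with NaHCO3 alone. Both passed the adjusted p (2.47e-05 for AXIN2 and 9.04e-05 for LEF1) but not the fold minimum, with log2 fold changes of -0.80 and -0.82. Without the fold minimum 5 of the 12 passed with lower levels and 1 with a higher level, against 991 and 835 of all 14130 genes. The higher one was BAMBI, the most abundant of the list, at 304 and 287 FPKM with IWP2 and NaHCO3, against 166 and 171 FPKM with NaHCO3 alone (log2 fold change 0.747, adjusted p = 0.0122). SP5, a transcriptional repressor induced by beta-catenin, was at 8.37 and 7.21 FPKM with IWP2 and NaHCO3, against 6.0 and 6.88 FPKM with NaHCO3 alone (log2 fold change 0.21, adjusted p = 0.581). DKK1, a secreted antagonist, was at 2.8 and 2.79 FPKM with IWP2 and NaHCO3, against 2.67 and 3.41 FPKM with NaHCO3 alone, and here the groups overlapped. Among 6 secreted antagonists 1 fell, with a median of -0.171. That gene, SFRP2, was at 0.79 and 0.93 FPKM with IWP2 and NaHCO3, against 1.88 and 2.21 FPKM with NaHCO3 alone. It reached 1 FPKM only with NaHCO3 alone, and none of the other 5 was called, with a median of 0.07. SFRP1 was higher with IWP2, at 41.4 and 38.4 FPKM with IWP2 and NaHCO3, against 26.1 and 25.6 FPKM with NaHCO3 alone. It passed the adjusted p (0.00791) but not the fold minimum, with a log2 fold change of 0.56.

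Promoter sequences of 3 genes are shown to place these results on the sequence that TCF/LEF factors read, since SP5 and DKK1 carry their core while not being called and CDX2 carries it and fell. Each is the RefSeq window from 250 bases before to 50 bases after the gene's start on GRCh38.p14, written along the gene's strand, with TCAAAG or its reverse complement in capitals. They lie at chr2:170715087-170715386 on the plus strand (SP5), chr10:52314031-52314330 on the plus strand (DKK1) and chr13:27969266-27969565 on the minus strand (CDX2).
SP5: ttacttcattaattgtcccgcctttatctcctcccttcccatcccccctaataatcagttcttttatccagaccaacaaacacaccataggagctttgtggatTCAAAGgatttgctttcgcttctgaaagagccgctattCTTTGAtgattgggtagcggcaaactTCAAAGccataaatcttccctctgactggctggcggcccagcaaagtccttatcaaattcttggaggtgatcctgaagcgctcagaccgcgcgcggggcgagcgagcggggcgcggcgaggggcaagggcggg
DKK1: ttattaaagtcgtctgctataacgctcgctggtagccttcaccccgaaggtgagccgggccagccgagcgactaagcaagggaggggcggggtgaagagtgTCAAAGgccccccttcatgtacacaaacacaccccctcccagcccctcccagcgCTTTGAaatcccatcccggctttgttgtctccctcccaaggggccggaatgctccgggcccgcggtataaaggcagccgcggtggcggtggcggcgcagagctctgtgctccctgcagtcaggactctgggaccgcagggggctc
CDX2: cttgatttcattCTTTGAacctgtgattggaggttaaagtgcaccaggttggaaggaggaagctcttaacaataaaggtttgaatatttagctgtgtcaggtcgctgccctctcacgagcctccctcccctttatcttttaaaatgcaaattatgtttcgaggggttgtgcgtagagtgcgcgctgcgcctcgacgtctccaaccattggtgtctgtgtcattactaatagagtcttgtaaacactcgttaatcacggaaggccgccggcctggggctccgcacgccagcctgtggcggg

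SP5 held 3 copies, DKK1 held 2 and CDX2 held 1, at 238 bases before its start. Windows were found for 9 of the 15 feedback targets on the list, and 2 of these 9, SP5 and DKK1, held TCAAAG on either strand. It was held by 13.1% of all 27305 RefSeq promoters and, of the 9241 with a symbol in the gene set, by 8.49%. The share was 18.1% of the 226 promoters of genes that fell and 11.5% of the 218 of genes that rose. The longer form ATCAAAG, which contains TCAAAG, was in 2.64% of all promoters. A match in this window is a description of the letters there, not a site shown to be bound.

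Of 12 caudal and HOX genes, which pattern the trunk and tail end of the embryo, 6 fell with IWP2 and none rose, with a median log2 fold change of -1.302 against -0.005 over the whole gene set. Of the list, 4 genes, CDX1, CDX2 and HOXC6 among them, reached 1 FPKM only with NaHCO3 alone, and of the other 8 genes 2 fell, with a median of -0.45. CDX2, a caudal homeobox factor, was at 0.26 and 0.5 FPKM with IWP2 and NaHCO3, against 11.4 and 11.9 FPKM with NaHCO3 alone (log2 fold change -5.02, SE 0.287, adjusted p = 3.2e-10), a drop to near zero in both libraries. CDX1, its relative, had 1 count in each IWP2 with NaHCO3 library and 47 and 41 counts in the NaHCO3 libraries, or 0.03 and 0.03 FPKM with IWP2 and NaHCO3 against 1.57 and 1.29 FPKM with NaHCO3 alone. Scaled by library size, CDX1 was 54.1-fold lower with IWP2 (95% exact counting interval 14.5 to 453, which covers counting error only). HOXC6 was at 0.03 and 0.07 FPKM with IWP2 and NaHCO3, against 4.27 and 4.19 FPKM with NaHCO3 alone, and HOXB8 at 2.31 and 2.01 FPKM with IWP2 and NaHCO3, against 24.6 and 24.9 FPKM with NaHCO3 alone (log2 fold change -3.58, SE 0.285, adjusted p = 1.28e-06). HOXC6 overlaps HOXC8 on the same strand in the annotation used, so their counts are not independent.

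HOXB6, the most abundant gene of the list, was at 43.95 and 44.9 FPKM with IWP2 and NaHCO3, against 42.9 and 43.3 FPKM with NaHCO3 alone, with a log2 fold change of -0.02 (SE 0.171). HOXB2 was at 25.8 and 27.3 FPKM with IWP2 and NaHCO3, against 18.7 and 18.7 FPKM with NaHCO3 alone, higher in both IWP2 libraries but not called. HOXB1, the most 3' gene of its cluster, fell (1.4 and 0.97 with IWP2 and NaHCO3 against 3.57 and 2.98 FPKM in NaHCO3 alone, log2 fold change -1.52), though the call was lost without the second IWP2 with NaHCO3 library (log2 fold change -1.29, adjusted p = 0.0715). HOXC8 was among the largest falls (0.25 and 0.09 with IWP2 and NaHCO3 against 7.54 and 7.49 FPKM in NaHCO3 alone), but DESeq2 gave it an adjusted p of 0.749. HOXB-AS3, a non-coding gene that overlaps HOXB3 to HOXB6 on the opposite strand, fell (0.92 and 0.99 with IWP2 and NaHCO3 against 14.9 and 14.9 FPKM in NaHCO3 alone), and its counts are uncertain for the same reason as those of WNT5A.

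Of 6 primitive streak and mesendoderm genes measured, 1 rose and none fell, with a median of 0.231. EOMES, a T-box factor of mesendoderm, was at 2.66 and 2.31 FPKM with IWP2 and NaHCO3, against 0.66 and 0.85 FPKM with NaHCO3 alone (log2 fold change 1.65, SE 0.207, adjusted p = 1.07e-05). It reached 1 FPKM with IWP2 and NaHCO3 only, and none of the other 5 genes was called, with a median of 0.05. MIXL1, a homeobox factor of the streak, was at 1.86 and 1.62 FPKM with IWP2 and NaHCO3, against 1.07 and 1.15 FPKM with NaHCO3 alone, and T (brachyury) was at 0.23 FPKM or less in each library. FOXH1, a NODAL pathway factor, was at 20.3 and 17.3 FPKM with IWP2 and NaHCO3, against 12.4 and 14.7 FPKM with NaHCO3 alone, and SP8, a zinc-finger factor, at 10.4 and 10.5 FPKM with IWP2 and NaHCO3, against 17.9 and 18.4 FPKM with NaHCO3 alone, neither called. Of 4 presomitic and somitic genes, UNCX and FOXC1 rose (log2 fold changes 3.23 and 1.89) and none fell, with a median of 1.075. Both genes that rose reached 1 FPKM with IWP2 and NaHCO3 only. Neither of the other 2 was called, with a median of 0.24. Of 9 pluripotency genes, 2 rose and none fell, with a median of -0.119. These were L1TD1, an RNA-binding protein, at 11.8 and 11.1 FPKM with IWP2 and NaHCO3, against 3.56 and 2.93 FPKM with NaHCO3 alone, and TDGF1, a NODAL co-receptor, at 8.75 and 8.68 FPKM with IWP2 and NaHCO3, against 2.98 and 3.18 FPKM with NaHCO3 alone, while LIN28A and LIN28B, the 2 most abundant, were not called.

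Of 14 sarcomere genes measured, 10 rose and 1 fell, with a median log2 fold change of 2.29 against -0.005 over the gene set. MYH6, TTN, MYBPC3 and UNC45B reached 1 FPKM with IWP2 and NaHCO3 only, and of the other 10 genes 6 rose and 1 fell, with a median of 1.14. MYH6, the alpha myosin heavy chain of atrial and early heart muscle, was at 26.5 and 27.1 FPKM with IWP2 and NaHCO3, against 0.07 and 0.12 FPKM with NaHCO3 alone (log2 fold change 8.04, SE 0.368, adjusted p = 1.69e-11). The fitted change is 263-fold, and the NaHCO3 levels stand for 8 and 14 counts. MYH6 shares much of its sequence with its neighbour MYH7, so reads could be split between them. MYL7, an atrial myosin light chain, was at 365 and 388 FPKM with IWP2 and NaHCO3, against 71.01 and 69.2 FPKM with NaHCO3 alone (log2 fold change 2.36, SE 0.263, adjusted p = 2.51e-06). TNNT2, cardiac troponin T, was at 32.4 and 32.3 FPKM with IWP2 and NaHCO3, against 13.3 and 12.6 FPKM with NaHCO3 alone (log2 fold change 1.26, SE 0.124, adjusted p = 5.44e-07), a rise of just over 2-fold between tight pairs. ACTN2, the actin cross-linker of the Z-disc, was at 11.3 and 12.1 FPKM with IWP2 and NaHCO3, against 1.45 and 0.66 FPKM with NaHCO3 alone (log2 fold change 3.41, SE 0.274, adjusted p = 3.33e-08), and TTN, the giant spring protein titin, at 3.38 and 3.57 FPKM with IWP2 and NaHCO3, against 0.58 and 0.63 FPKM with NaHCO3 alone (log2 fold change 2.46, SE 0.461, adjusted p = 0.00116). In each of these 5 genes both IWP2 libraries lay above both NaHCO3 libraries.

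UNC45B, a chaperone that folds muscle myosin, was at 9.01 and 7.8 FPKM with IWP2 and NaHCO3, against 0.01 and 0.06 FPKM with NaHCO3 alone (log2 fold change 7.79, SE 0.364, adjusted p = 1.78e-11). MYBPC3, cardiac myosin-binding protein C, had 170 and 213 counts with IWP2 and NaHCO3 and 1 and 2 counts with NaHCO3 alone, 104-fold higher after scaling (95% exact counting interval 35.3 to 506). TNNI1, TPM1 and NEBL, which encode troponin I of slow and embryonic muscle, a tropomyosin and the Z-disc protein nebulette, also rose (log2 fold changes 2.21, 1.02 and 3.34). Of the other 4, MYL3, a ventricular light chain, fell (log2 fold change -1.28), a call that was lost without the first IWP2 with NaHCO3 library or the second NaHCO3 library. The others were not called. ACTC1, cardiac actin, was at 149 and 146 FPKM with IWP2 and NaHCO3, against 134 and 144 FPKM with NaHCO3 alone (log2 fold change 0.03). MYL4, an atrial light chain, was at 53.8 and 49.1 FPKM with IWP2 and NaHCO3, against 27.5 and 29.5 FPKM with NaHCO3 alone, and TNNC1, the troponin C of heart and slow muscle, at 13.7 and 16.5 FPKM with IWP2 and NaHCO3, against 17.9 and 19.7 FPKM with NaHCO3 alone. MYL3 and TNNC1 were named after their values were seen.

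**Figure D2:**
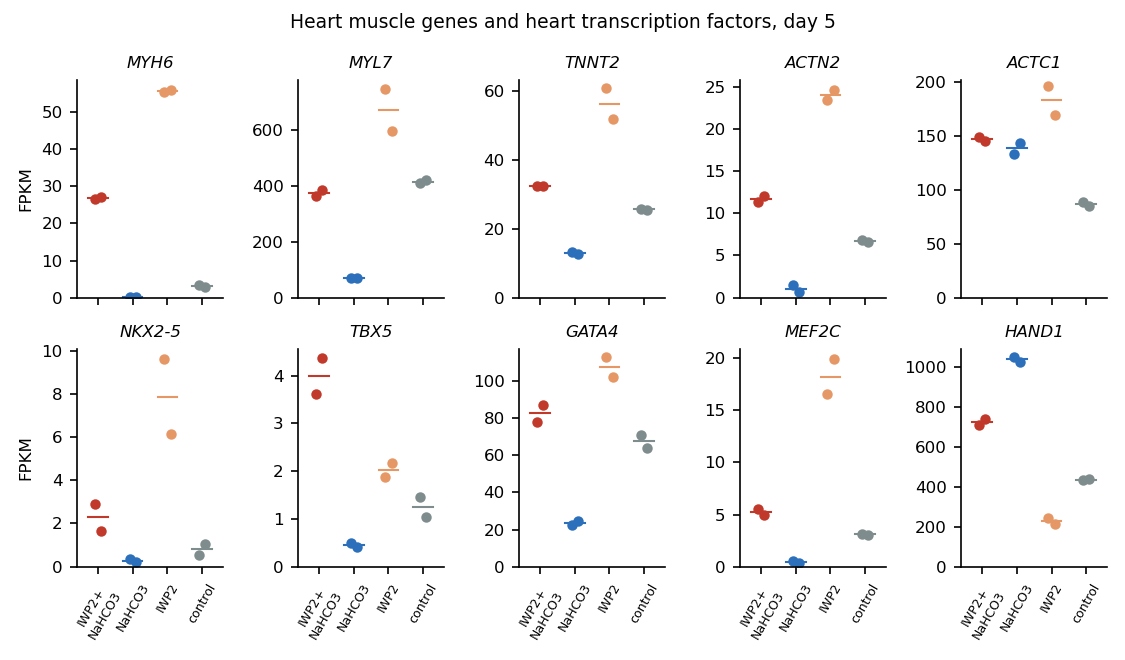
FPKM of 5 sarcomere genes (top row) and 5 heart transcription factors (bottom row) in every library of day 5, with IWP2 and NaHCO3, NaHCO3 alone, IWP2 alone and the control from left to right; points are libraries and lines the mean of 2. MYH6 is at 26.5 and 27.1 FPKM with IWP2 and NaHCO3 and near 0 with NaHCO3 alone, whereas ACTC1 stands between 133.6 and 149.4 FPKM in both groups and HAND1 is lower with IWP2.

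Of 20 transcription factors that specify the heart, 10 rose and 1 fell, with a median of 0.979. NKX2-5, TBX5, MEF2C, MYOCD and SMYD1 reached 1 FPKM with IWP2 and NaHCO3 only, HOPX only with NaHCO3 alone, and of the other 14 genes 5 rose and none fell, with a median of 0.19. GATA4, a zinc-finger factor of heart and endoderm, was at 78.3 and 87.03 FPKM with IWP2 and NaHCO3, against 22.2 and 24.5 FPKM with NaHCO3 alone (log2 fold change 1.76, SE 0.101, adjusted p = 3.29e-10). ISL1, a marker of second heart field progenitors, was at 15.7 and 14.7 FPKM with IWP2 and NaHCO3, against 3.95 and 3.56 FPKM with NaHCO3 alone (log2 fold change 1.95, SE 0.126, adjusted p = 1.91e-09). MEF2C, a MADS-box factor that switches on muscle genes, was at 5.57 and 4.93 FPKM with IWP2 and NaHCO3, against 0.55 and 0.39 FPKM with NaHCO3 alone (log2 fold change 3.44, SE 0.2, adjusted p = 3.89e-10). For all 3 genes the pairs were well apart. NKX2-5, a homeobox factor of heart progenitors, was at 2.91 and 1.66 FPKM with IWP2 and NaHCO3, against 0.34 and 0.19 FPKM with NaHCO3 alone (log2 fold change 3.07, SE 0.474, adjusted p = 0.000125), and TBX5, the factor mutated in Holt-Oram syndrome, at 3.61 and 4.36 FPKM with IWP2 and NaHCO3, against 0.5 and 0.42 FPKM with NaHCO3 alone (log2 fold change 3.05, SE 0.283, adjusted p = 2.25e-07). TBX2, a repressor of chamber identity in the atrioventricular canal, was at 11.6 and 13.1 FPKM with IWP2 and NaHCO3, against 0.95 and 1.11 FPKM with NaHCO3 alone (log2 fold change 3.52, SE 0.275, adjusted p = 2.28e-08). Levels of NKX2-5 were low and the 2 IWP2 libraries differed, but both lay above the NaHCO3 pair.

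SMYD1, a muscle-specific histone methyltransferase, had 759 and 518 counts with IWP2 and NaHCO3 and 1 and 0 counts with NaHCO3 alone. Its ratio after scaling was 1040, with a 95% exact counting interval of 186 to 41100. MYOCD, the SRF co-activator myocardin, rose as well (log2 fold change 1.75). TBX20 was called in the fit over all libraries (45.7 and 52.02 with IWP2 and NaHCO3 against 23.97 and 19.5 FPKM in NaHCO3 alone, adjusted p = 0.0352) but not with DESeq2 (adjusted p = 0.11) and not when any of the 4 libraries was left out (0.0995 to 0.274), and IRX4 was just above the fold minimum (1.05). HAND1, the most abundant of the list and a bHLH factor of lateral and heart mesoderm, did not rise, at 712 and 741 FPKM with IWP2 and NaHCO3, against 1049 and 1028 FPKM with NaHCO3 alone (log2 fold change -0.58, adjusted p = 0.0113, below the fold minimum). HAND2, its partner, was at 69.98 and 73.5 FPKM with IWP2 and NaHCO3, against 85.9 and 80.9 FPKM with NaHCO3 alone and was not called. HOPX, a homeodomain-only factor of committed heart progenitors, fell (0.18 and 0.24 with IWP2 and NaHCO3 against 2.05 and 1.92 FPKM in NaHCO3 alone). Of 8 calcium, channel and peptide genes, 3 rose (CACNA1D, NPPB and RYR2, log2 fold changes 2.33, 2.18 and 1.98) and 1 fell, with a median of 0.619. The 3 that rose reached 1 FPKM with IWP2 and NaHCO3 only, and the median of the other 5 was 0.10. The one that fell, the gap-junction gene GJA1, was at 269 and 244 FPKM with IWP2 and NaHCO3, against 498 and 493 FPKM with NaHCO3 alone (log2 fold change -1.01, and -0.946 without the second IWP2 with NaHCO3 library).

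Promoters of 2 sarcomere genes that rose, MYBPC3 and TNNT2, show a GATA core, AGATAA or its reverse complement, in capitals, in the same RefSeq windows at chr11:47352653-47352952 and chr1:201377631-201377930, both on the minus strand of GRCh38.p14.
MYBPC3: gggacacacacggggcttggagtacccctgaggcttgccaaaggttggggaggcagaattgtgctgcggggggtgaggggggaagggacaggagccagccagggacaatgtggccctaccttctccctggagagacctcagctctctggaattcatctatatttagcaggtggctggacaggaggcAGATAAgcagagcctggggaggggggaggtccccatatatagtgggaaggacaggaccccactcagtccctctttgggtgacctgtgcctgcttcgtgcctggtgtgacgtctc
TNNT2: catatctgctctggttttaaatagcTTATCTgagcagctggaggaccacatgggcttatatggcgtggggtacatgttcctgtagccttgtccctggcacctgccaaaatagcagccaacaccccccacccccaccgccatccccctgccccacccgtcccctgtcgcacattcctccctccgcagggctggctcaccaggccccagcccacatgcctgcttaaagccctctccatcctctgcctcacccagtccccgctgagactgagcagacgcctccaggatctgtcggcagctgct

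The core lies 64 bases before the start of MYBPC3 and 225 before that of TNNT2. Of the 10 measured sarcomere genes with a window, these 2 held it, as did 3 genes of the list that are not in the gene set. The TCF/LEF core TCAAAG was in 4 of the same 10 windows, those of MYH6, MYL7, NEBL and TTN. The GATA core was in 10.5% of all promoters of the table and 5.06% of those of the gene set. Among promoters of genes that rose 10.6% held it, and among those of genes that fell 7.08%.

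Of 14 liver-type secreted proteins and apolipoproteins, 1 rose and 2 fell, with a median of -0.298. APOA1, the main HDL apolipoprotein, was at 159 and 155 FPKM with IWP2 and NaHCO3, against 254 and 274 FPKM with NaHCO3 alone, lower in both IWP2 libraries but under the fold minimum (log2 fold change -0.81, SE 0.17, adjusted p = 0.00248). TTR, a thyroid hormone carrier, was at 21.8 and 20.2 FPKM with IWP2 and NaHCO3, against 13.6 and 12.6 FPKM with NaHCO3 alone, higher in both and also under the minimum (log2 fold change 0.62, SE 0.174, adjusted p = 0.0275). AFP, the fetal albumin-like protein, overlapped between groups at 2.49 and 3.66 FPKM with IWP2 and NaHCO3, against 2.92 and 2.11 FPKM with NaHCO3 alone. FGB, a fibrinogen chain, fell (12.1 and 11.6 with IWP2 and NaHCO3 against 29.5 and 28.6 FPKM in NaHCO3 alone, log2 fold change -1.36), while the calls of RBP4 (-1.19) and SERPINA1 (1.39) were lost in 3 of the 4 fits that left out a library. In those fits the adjusted p of RBP4 was 0.0807, 0.145 and 0.196, and that of SERPINA1 0.229, 0.104 and 0.319.

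Of 9 endoderm and liver transcription factors, HHEX and PROX1 rose, SOX17 fell and the median was -0.142. HHEX and PROX1 reached 1 FPKM with IWP2 and NaHCO3 only, and the median of the other 7 was -0.17. HHEX, a homeobox factor of anterior endoderm and liver bud, was at 4.66 and 4.15 FPKM with IWP2 and NaHCO3, against 0.6 and 0.74 FPKM with NaHCO3 alone (log2 fold change 2.64, SE 0.225, adjusted p = 7.07e-08). PROX1, a homeobox factor used in liver, heart and lymphatic vessels, was at 2.59 and 2.52 FPKM with IWP2 and NaHCO3, against 0.57 and 0.48 FPKM with NaHCO3 alone (log2 fold change 2.23, SE 0.301, adjusted p = 2.76e-05). SOX17, an early endoderm and vessel factor, was at 4.0 and 3.67 FPKM with IWP2 and NaHCO3, against 11.7 and 12.8 FPKM with NaHCO3 alone (log2 fold change -1.74, SE 0.158, adjusted p = 1.7e-07). In these 3 genes the groups did not overlap. FOXA2 and HNF4A are core regulators of foregut and liver. FOXA2 was at 14.6 and 11.6 FPKM with IWP2 and NaHCO3, against 12.8 and 15.3 FPKM with NaHCO3 alone, so the groups overlapped. HNF4A was at 16.1 and 16.2 FPKM with IWP2 and NaHCO3, against 27.3 and 28.04 FPKM with NaHCO3 alone, and passed the adjusted p but not the fold minimum (log2 fold change -0.84). None of 16 epithelial genes was called (median -0.246), among them EPCAM at 33.1 and 30.1 FPKM with IWP2 and NaHCO3, against 37.3 and 40.1 FPKM with NaHCO3 alone. Of 11 epithelial-mesenchymal transition genes 1 fell, CDH11, at the edge of the fold minimum (-1.01, and -0.995 and -0.974 without the first IWP2 with NaHCO3 or the second NaHCO3 library), with a median of -0.052.

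Of 17 fibroblast and matrix genes, 7 fell, none rose and 16 had negative fold changes, with a median of -0.839 against -0.005 over the gene set. Over the gene set, 7144 of 14130 genes had negative fold changes. POSTN, the matricellular protein periostin, was at 1.54 and 1.96 FPKM with IWP2 and NaHCO3, against 23.4 and 20.4 FPKM with NaHCO3 alone (log2 fold change -3.71, SE 0.289, adjusted p = 3.64e-08). COL6A3, a chain of collagen VI, was at 28.96 and 30.4 FPKM with IWP2 and NaHCO3, against 207 and 215 FPKM with NaHCO3 alone (log2 fold change -2.90, SE 0.19, adjusted p = 2.38e-09), and its partner chain COL6A1 at 221 and 229 FPKM with IWP2 and NaHCO3, against 519.7 and 550.0 FPKM with NaHCO3 alone (log2 fold change -1.31, SE 0.111, adjusted p = 6.15e-08). DCN, the proteoglycan decorin, was at 3.09 and 3.2 FPKM with IWP2 and NaHCO3, against 14.7 and 13.99 FPKM with NaHCO3 alone (log2 fold change -2.26, SE 0.277, adjusted p = 8.78e-06). All 4 were lower in both IWP2 libraries. COL6A2, COL5A1 and LOX fell too, by log2 fold changes of -1.19, -1.10 and -1.10. COL3A1, the most abundant, was at 1068 and 1133 FPKM with IWP2 and NaHCO3, against 1508 and 1464 FPKM with NaHCO3 alone and was not called. Summed over the list, levels were 2400 and 2521 FPKM with IWP2 and NaHCO3, against 4208 and 4186 FPKM with NaHCO3 alone.

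Of 8 smooth muscle genes, DES, LMOD1 and CNN1 rose (log2 fold changes 2.14, 1.41 and 1.08) and ACTA2 fell (-1.08), with a median of 0.28. CNN1 and ACTA2 dropped under the fold minimum when single libraries were left out (down to 0.916 and to -0.981), and ACTA2 overlaps FAS on the opposite strand. Of 7 endothelial genes, ETV2 fell and none rose, with a median of -0.713. All 7 had negative fold changes, as had 7144 of all 14130 genes. Of the list, 3 genes, ETV2 among them, reached 1 FPKM only with NaHCO3 alone. None of the other 4 was called, with a median of -0.42. ETV2, the ETS factor that founds the endothelial and blood lineages, was at 0.69 and 0.52 FPKM with IWP2 and NaHCO3, against 3.03 and 2.62 FPKM with NaHCO3 alone (log2 fold change -2.28, SE 0.393, adjusted p = 0.000405). Of 6 blood genes, TAL1 and CD34 fell, with a median of -0.152. Both reached 1 FPKM only with NaHCO3 alone, and none of the other 4 was called, with a median of 0.45. TAL1, a factor of blood and vessel progenitors, was at 0.06 and 0.24 FPKM with IWP2 and NaHCO3, against 1.8 and 1.69 FPKM with NaHCO3 alone, and CD34, a surface protein of the same cells, at 0.18 and 0.05 FPKM with IWP2 and NaHCO3, against 1.33 and 1.3 FPKM with NaHCO3 alone. KDR, the VEGF receptor of those progenitors, was at 109.6 and 114 FPKM with IWP2 and NaHCO3, against 118 and 114 FPKM with NaHCO3 alone, with no call.

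Of 5 epicardial and mesothelial genes 1 rose and the median was -0.205. That gene, WT1, the zinc-finger factor of epicardium and mesothelium, was at 6.27 and 7.77 FPKM with IWP2 and NaHCO3, against 0.03 and 0.04 FPKM with NaHCO3 alone (log2 fold change 7.53, SE 0.59, adjusted p = 7.4e-08). It reached 1 FPKM with IWP2 and NaHCO3 only, and none of the other 4 was called, with a median of -0.53. TBX18, another epicardial gene, was at 0.58 and 0.56 FPKM with IWP2 and NaHCO3, against 0 and 0.01 FPKM with NaHCO3 alone, while TCF21 was at 5.29 and 4.46 FPKM with IWP2 and NaHCO3, against 9.06 and 9.01 FPKM with NaHCO3 alone. WT1 and TBX18 were thus higher with IWP2 and TCF21 lower. Of 9 amnion and trophoblast genes 6 rose and none fell, with a median of 1.39. TFAP2A, KRT7, VTCN1 and WNT6 reached 1 FPKM with IWP2 and NaHCO3 only, and of the other 5 genes 2 rose, with a median of 0.10. KRT7, a simple-epithelium keratin, was at 4.57 and 3.73 FPKM with IWP2 and NaHCO3, against 0.36 and 0.31 FPKM with NaHCO3 alone (log2 fold change 3.56, SE 0.319, adjusted p = 1.38e-07), and GABRP, a GABA receptor subunit, at 7.64 and 7.31 FPKM with IWP2 and NaHCO3, against 1.55 and 1.64 FPKM with NaHCO3 alone (log2 fold change 2.16, SE 0.166, adjusted p = 1.97e-08). TFAP2A, VTCN1, ISL1 and WNT6 made up the rest, of which ISL1 is also a heart gene and VTCN1 lost its call without the second NaHCO3 library (log2 fold change 1.81, adjusted p = 0.0963). The summed level of this list was 173.2 and 173.4 FPKM with IWP2 and NaHCO3, against 134.5 and 137.2 FPKM with NaHCO3 alone; its part in the ISL1 result was not tested. Of 4 neural genes LHX2 and OTX2 rose and the median was 1.10. LHX2, a LIM homeobox factor also used outside the nervous system, was at 14.9 and 19.1 FPKM with IWP2 and NaHCO3, against 0.62 and 0.67 FPKM with NaHCO3 alone (log2 fold change 4.65, SE 0.326, adjusted p = 5.55e-09), and OTX2, a head homeobox factor, at 14.1 and 12.9 FPKM with IWP2 and NaHCO3, against 3.45 and 4.01 FPKM with NaHCO3 alone (log2 fold change 1.79, SE 0.128, adjusted p = 7.42e-09).

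**Figure D3:**
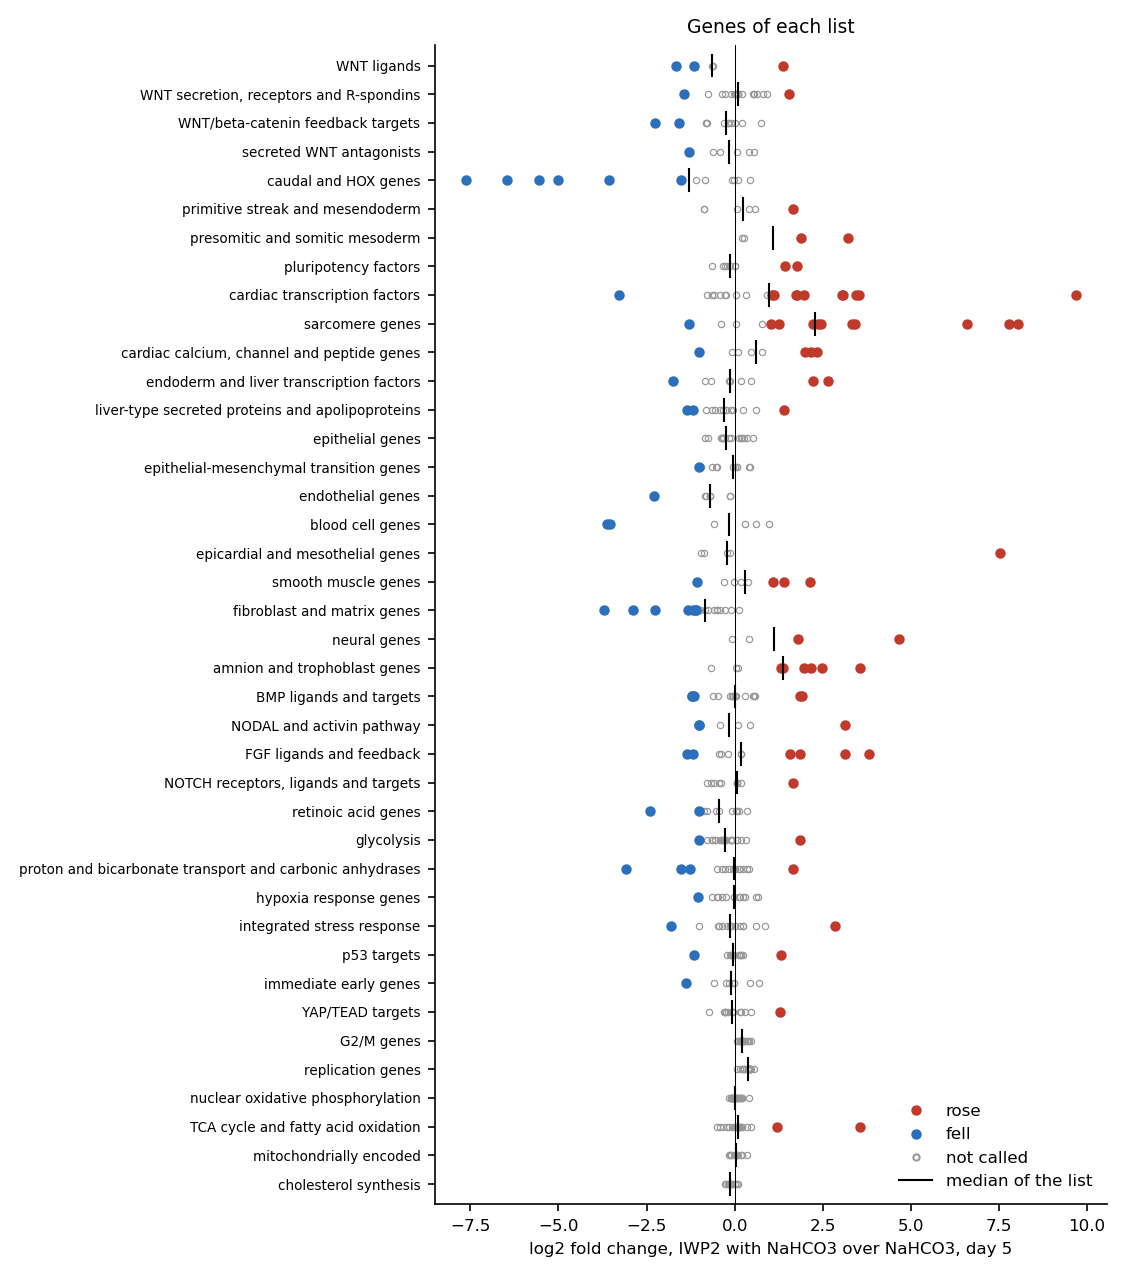
Log2 fold change of IWP2 with NaHCO3 over NaHCO3 alone on day 5 (horizontal axis) for the measured genes of 40 lists (rows). Red points rose, blue points fell, open points were not called and black bars are list medians; the bar is at 2.29 for sarcomere genes, 1.39 for amnion and trophoblast genes, -1.302 for caudal and HOX genes and -0.839 for matrix genes.

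Signalling genes outside the WNT pathway also changed. Of 11 FGF ligands and feedback genes 4 rose and 2 fell, with a median of 0.183. FGF8 and SPRY4 reached 1 FPKM with IWP2 and NaHCO3 only. Of the other 9 genes 2 rose and 2 fell, with a median of -0.20. DUSP6, the phosphatase that limits ERK downstream of FGF, was at 52.1 and 43.4 FPKM with IWP2 and NaHCO3, against 2.79 and 3.75 FPKM with NaHCO3 alone (log2 fold change 3.80, SE 0.14, adjusted p = 2.18e-12). FGF8 and FGF10, ligands made by heart progenitors, rose as well. FGF8 was at 3.33 and 2.64 FPKM with IWP2 and NaHCO3, against 0.45 and 0.21 FPKM with NaHCO3 alone (log2 fold change 3.12), and FGF10 at 7.41 and 8.18 FPKM with IWP2 and NaHCO3, against 2.23 and 1.88 FPKM with NaHCO3 alone (log2 fold change 1.86). SPRY4, a feedback inhibitor, rose (1.57), while SPRY2, the most abundant gene of the list that was not called, was at 14.7 and 14.9 FPKM with IWP2 and NaHCO3, against 11.98 and 13.03 FPKM with NaHCO3 alone. FGF2 and FGF19 fell (-1.18 and -1.35), and 1 of these 2 calls was lost without the second IWP2 with NaHCO3 library or the first NaHCO3 library. NODAL, the TGF-beta family ligand of mesendoderm, was at 12.2 and 14.2 FPKM with IWP2 and NaHCO3, against 1.29 and 1.57 FPKM with NaHCO3 alone (log2 fold change 3.14, SE 0.262, adjusted p = 5.63e-08). It was the 1 gene of 6 in the NODAL and activin list to rise, and CFC1, a co-receptor, and FST, which binds activin, fell with log2 fold changes of -1.02 and -1.01 (list median -0.153). Neither of those calls held when libraries were left out, with log2 fold changes down to -0.636 for CFC1 without the second NaHCO3 library and -0.935 for FST without the first.

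Of 17 BMP ligands and targets, 2 rose and 3 fell, with a median of 0. BMP5, a ligand, was at 63.02 and 64.5 FPKM with IWP2 and NaHCO3, against 18.2 and 15.4 FPKM with NaHCO3 alone (log2 fold change 1.86, SE 0.193, adjusted p = 1.05e-06). BMP6, MSX2 and NOG, a ligand, a target and an antagonist, fell (-1.21, -1.17 and -1.22), with BMP6 lost from the calls in 3 of 4 fits without a library (adjusted p 0.0581 to 0.14). BMP4 was at 121 and 126 FPKM with IWP2 and NaHCO3, against 118 and 117 FPKM with NaHCO3 alone; it was not called. Of 11 NOTCH genes, JAG1, a ligand, rose (12.7 and 11.5 with IWP2 and NaHCO3 against 3.67 and 3.66 FPKM in NaHCO3 alone) and none fell, with a median of 0.063. Of 11 retinoic acid genes 2 fell, with a median of -0.444. They were CYP26A1, the enzyme that degrades retinoic acid, at 5.01 and 5.4 FPKM with IWP2 and NaHCO3, against 26.1 and 26.5 FPKM with NaHCO3 alone (log2 fold change -2.40, SE 0.251, adjusted p = 1.1e-06), and the receptor gene RARG (log2 fold change -1.02, and -0.993 without the second NaHCO3 library).

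None of 26 nuclear oxidative phosphorylation genes, 13 mitochondrially encoded genes or 15 cholesterol synthesis genes was called, with medians of 0.014, 0.037 and -0.122. CPT1A and PPARGC1A were the 2 genes to rise among 22 of fatty acid oxidation and the TCA cycle, with a median of 0.088. Both reached 1 FPKM with IWP2 and NaHCO3 only, and the median of the other 20 was 0.05. PPARGC1A, the co-activator of mitochondrial biogenesis, was at 1.88 and 2.03 FPKM with IWP2 and NaHCO3, against 0.18 and 0.13 FPKM with NaHCO3 alone (log2 fold change 3.56, SE 0.247, adjusted p = 5.07e-09). Of 22 glycolysis genes PDK1 rose and SLC2A1 fell, 17 had negative fold changes and the median was -0.285. Over all 14130 genes, 7144 had negative fold changes. Without the fold minimum 9 of the 22 glycolysis genes passed the adjusted p with lower levels, against 991 of the 14130. PDK1, the kinase that restrains pyruvate entry to mitochondria, was at 22.3 and 21.9 FPKM with IWP2 and NaHCO3, against 6.15 and 5.45 FPKM with NaHCO3 alone (log2 fold change 1.87, SE 0.144, adjusted p = 1.99e-08), and SLC2A1, the glucose transporter GLUT1, at 57.8 and 66.04 FPKM with IWP2 and NaHCO3, against 119 and 122 FPKM with NaHCO3 alone (log2 fold change -1.02, and -0.931 and -0.998 without the first IWP2 with NaHCO3 library or the second NaHCO3 library). Of 16 genes of proton and bicarbonate transport and carbonic anhydrases 1 rose and 3 fell, with a median of -0.030. SLC4A4, a sodium bicarbonate cotransporter, was at 1.41 and 1.16 FPKM with IWP2 and NaHCO3, against 0.44 and 0.34 FPKM with NaHCO3 alone, and the carbonic anhydrase genes CA12, CA8 and CA4 fell (log2 fold changes -3.08, -1.51 and -1.25). Except for CA4, these were at 1.41 FPKM or less in each library. SLC4A4 reached 1 FPKM with IWP2 and NaHCO3 only, and CA12 and CA8 only with NaHCO3 alone. Of the other 13 genes of the list 1 fell.

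All 20 G2/M genes and all 19 replication genes had positive fold changes, with medians of 0.206 and 0.392, but none was called. Over the gene set, 6962 of 14130 genes had positive fold changes. Without the fold minimum 9 of the 19 replication genes passed the adjusted p with higher levels, against 835 of the 14130. Summed G2/M levels were 474.3 and 472.5 FPKM with IWP2 and NaHCO3, against 395.9 and 381.5 FPKM with NaHCO3 alone. Of 16 integrated stress response genes, VLDLR, a lipoprotein receptor, rose (2.85) and ATF3, a stress-induced bZIP factor, fell (8.02 and 8.74 with IWP2 and NaHCO3 against 29.01 and 27.1 FPKM in NaHCO3 alone), with a median of -0.123. Of 14 p53 targets GADD45A rose (1.33) and FAS fell (-1.14, adjusted p 0.0974 to 0.172 in the fits without a library), with a median of -0.041. Of 13 hypoxia response genes P4HA2 fell, at the edge of the fold minimum (-1.03, and -0.993 without the second IWP2 with NaHCO3 library), with a median of -0.026. Of 8 immediate early genes FOSL2 fell (-1.38, median -0.118), and of 14 YAP/TEAD targets ANKRD1, a cardiac ankyrin repeat protein, rose (1.27, median -0.066).

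Ranked by size among genes of at least 5 FPKM in the higher group, the 15 largest rises held MYH6, SMYD1, UNC45B, WT1, LHX2 and DUSP6, described above, and 9 others. ATOH1, a bHLH factor best known from neurons and hair cells, had 174 and 181 counts with IWP2 and NaHCO3, against 0 counts in both NaHCO3 libraries, which makes it at least 48.3-fold higher when 3 counts are set as the floor of a library. NKX2-6, a homeobox factor related to NKX2-5, was at 31.1 and 30.1 FPKM with IWP2 and NaHCO3, against 0.45 and 0.37 FPKM with NaHCO3 alone (log2 fold change 6.13, SE 0.436, adjusted p = 6.75e-09), and a non-coding gene beside it on chromosome 8 rose as well, with 60 and 51 counts with IWP2 and NaHCO3, against 0 and 2 counts with NaHCO3 alone. SHISA3 and SHISA2, relatives of the Xenopus protein Shisa that holds WNT and FGF receptors inside the cell, rose too. SHISA3 was at 25.1 and 23.8 FPKM with IWP2 and NaHCO3, against 1.07 and 1.01 FPKM with NaHCO3 alone, and SHISA2 at 11.6 and 12.1 FPKM with IWP2 and NaHCO3, against 0.86 and 0.66 FPKM with NaHCO3 alone. APCDD1L, a relative of the WNT antagonist APCDD1, was at 7.09 and 7.16 FPKM with IWP2 and NaHCO3, against 0.27 and 0.35 FPKM with NaHCO3 alone (log2 fold change 4.45, SE 0.212, adjusted p = 2.34e-11), so the 2 paralogues changed in opposite directions. LRRTM1, C7 (a complement component) and SPRR2F completed the 15, with log2 fold changes of 4.97, 4.47 and 3.69. SPRR2F lost its call without the second NaHCO3 library (3.04, adjusted p = 0.0544).

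Among the 15 largest falls were CDX2, HOXC8, HOXB8, HOXB-AS3, POSTN and COL6A3. TRPA1, an ion channel of sensory neurons, was at 0.09 and 0.02 FPKM with IWP2 and NaHCO3, against 5.17 and 5.61 FPKM with NaHCO3 alone (log2 fold change -6.51, SE 0.366, adjusted p = 2.74e-10), and TRPV2, another channel of that superfamily, at 1.63 and 1.2 FPKM with IWP2 and NaHCO3, against 8.43 and 10.02 FPKM with NaHCO3 alone (log2 fold change -2.76, SE 0.338, adjusted p = 8.48e-06). PITX1, a homeobox factor of the hindlimb, was at 4.78 and 4.96 FPKM with IWP2 and NaHCO3, against 51.4 and 48.97 FPKM with NaHCO3 alone (log2 fold change -3.43, SE 0.147, adjusted p = 6.56e-12), and the non-coding gene CTC-276P9.1 close to it on chromosome 5 fell with it (0.06 and 0.25 with IWP2 and NaHCO3 against 8.09 and 6.75 FPKM in NaHCO3 alone). URAD, an enzyme gene beside CDX2 on chromosome 13, fell likewise (0.3 and 0.11 with IWP2 and NaHCO3 against 6.63 and 6.18 FPKM in NaHCO3 alone). SLC39A2, a zinc transporter, was at 8.37 and 9.63 FPKM with IWP2 and NaHCO3, against 74.5 and 73.8 FPKM with NaHCO3 alone, and ALOX15, a lipoxygenase, at 13.4 and 13.8 FPKM with IWP2 and NaHCO3, against 92.1 and 84.8 FPKM with NaHCO3 alone (log2 fold changes -3.11 and -2.76). The non-coding genes RP11-256I9.2 and AC087073.1 completed the 15 (-4.76 and -4.85).

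The response to IWP2 differed with and without NaHCO3 for 556 genes, 3.93% of the gene set, by a test of the difference between the IWP2 effect with NaHCO3 and the effect without it. The difference was positive for 445 genes (3.15%) and negative for 111 (0.786%). A positive difference means a larger rise or a smaller fall with NaHCO3. Without NaHCO3, IWP2 alone against the control called 849 genes (6.01%), of which 236 rose (1.67%) and 613 fell (4.34%). The 2 effects share no library. The 2 libraries with IWP2 alone differed more from each other (chi-square per gene 10.7) than the pairs of the other 3 groups (3.2 to 5.13). Called in both in the same direction were 311 genes, 44.7% of the 696 and 36.6% of the 849, and 11 were called in opposite directions.

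Among the 40 lists, those of the epithelial genes and of the liver-type secreted proteins held the most called differences, 10 each. Of 14 liver-type secreted protein genes, 10 had positive called differences and none a negative one; 2 fell with NaHCO3 present and 12 with IWP2 alone. APOA1 was at 29.3 and 25.3 FPKM with IWP2 alone, against 179 and 216 in the control (log2 fold change -2.85), and the difference from the effect with NaHCO3 (-0.81) was 2.04 (SE 0.244, adjusted p = 1.92e-05). TTR was at 3.25 and 3.79 FPKM with IWP2 alone, against 18.7 and 17.2 in the control, with a difference of 2.96 (adjusted p = 2.13e-06). Both genes were thus lower with IWP2 alone than with IWP2 and NaHCO3, with NaHCO3 alone or in the control. Of 9 endoderm and liver transcription factors 7 had positive called differences: HNF4A was at 2.79 and 3.23 FPKM with IWP2 alone, against 25.9 and 28.97 in the control (difference 2.34, adjusted p = 1.41e-07). For FOXA2 the difference was 2.50. Of 16 epithelial genes 10 had positive called differences and 11 fell with IWP2 alone, among them EPCAM, a cell adhesion molecule, at 11.9 and 11.8 FPKM, against 47.2 and 54.3 in the control (difference 1.73), and E-cadherin (CDH1, difference 1.26).

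**Figure D4:**
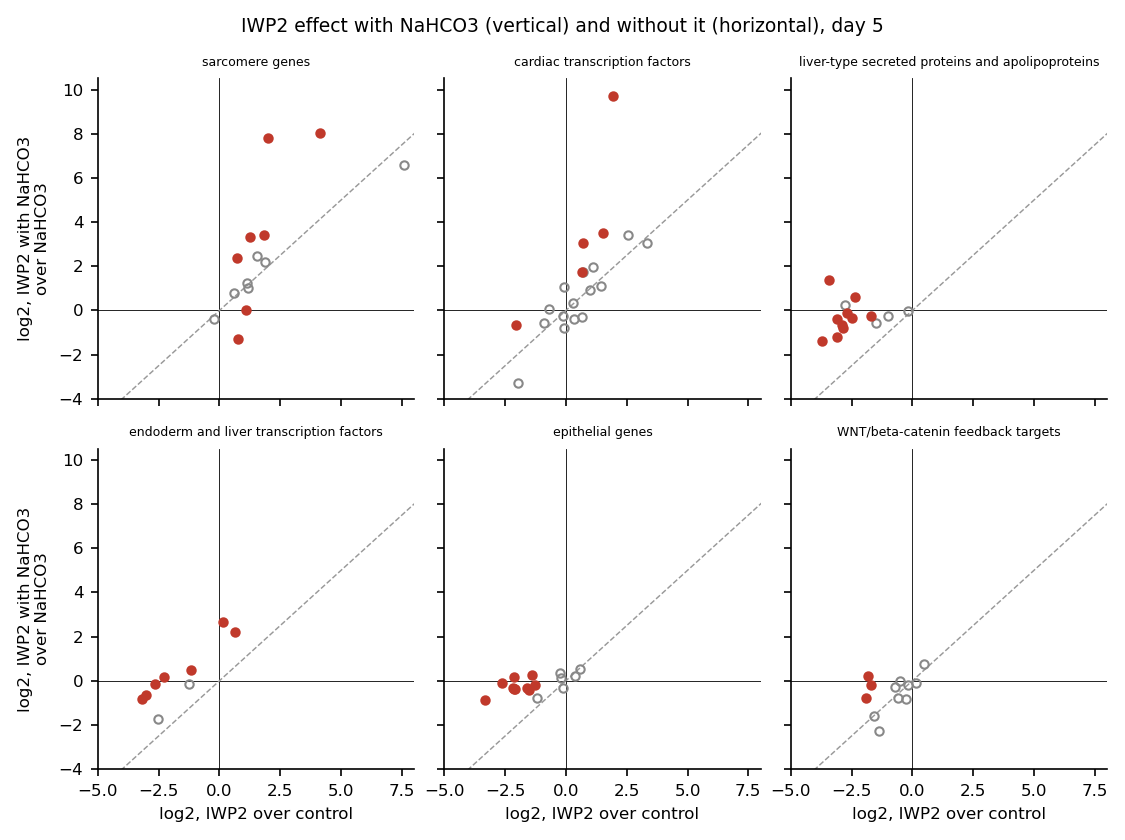
Log2 fold change of IWP2 with NaHCO3 over NaHCO3 alone (vertical axis) against that of IWP2 alone over the control (horizontal axis) on day 5, for the measured genes of 6 lists; the dashed line marks equal effects and filled points are genes whose difference between the 2 effects was called. Of the liver-type secreted proteins 10 of 14 points are filled and of the epithelial genes 10 of 16, all above the line.

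WNT targets differed by gene. SP5 fell with IWP2 alone (4.54 and 4.44 FPKM, against 17.1 and 14.9 in the control, log2 fold change -1.83) and was not called with NaHCO3 present, with a difference of 2.04 (adjusted p = 3.66e-05). DKK1 likewise fell without NaHCO3 (2.88 and 1.69 FPKM, against 7.95 and 7.08 in the control; difference 1.52, adjusted p = 0.0134), and its difference lost the call when several single libraries were left out, such as the second IWP2 library (1.199, adjusted p = 0.0855). NKD1 fell by nearly the same amount in both settings, -1.58 without NaHCO3 and -1.57 with it, and the difference was 0.00 (SE 0.27). In NaHCO3 alone SP5 and DKK1 were already below the control, at 6.0 and 6.88 FPKM and 2.67 and 3.41 FPKM. CDX2 fell in both settings (-4.89 without NaHCO3 and -5.02 with it), where the control held 0.54 and 0.72 FPKM and NaHCO3 alone 11.4 and 11.9 FPKM. The difference in CDX2 was not called on the counts (log2 difference -0.14), whereas limma called it on log2(FPKM + 1) (-2.53, adjusted p = 1.92e-07) and on log2(FPKM + 0.1) (-2.06, adjusted p = 0.0217). HOXB6 fell without NaHCO3 (6.49 and 4.71 FPKM with IWP2 alone, against 17.97 and 22.2 in the control) and not with it, a difference of 1.81 (adjusted p = 0.000117).

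Negative differences were found for the ligand genes RSPO2 and WNT5A and for SLC2A1 and COL6A1. RSPO2 rose with IWP2 alone (46.9 and 43.2 FPKM, against 5.17 and 5.2 in the control) and fell when NaHCO3 was present, with a difference of -4.58 (SE 0.191, adjusted p = 2.18e-11). WNT5A was not called with IWP2 alone (13.4 and 14.8 FPKM, against 13.9 and 15.8 in the control; difference -1.59), and NaHCO3 alone, at 39.97 and 36.2 FPKM, was the highest of these 4 groups. WNT6 had a positive difference of 2.30. SLC2A1 was at 40.2 and 40.4 FPKM with IWP2 alone, against 39.1 and 41.2 in the control, and its fall with NaHCO3 present gave a difference of -1.03. COL6A1 was called with NaHCO3 present (-1.31) and not without it (-0.02), with a tested difference of -1.29 (adjusted p = 1.89e-05).

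**Figure D5:**
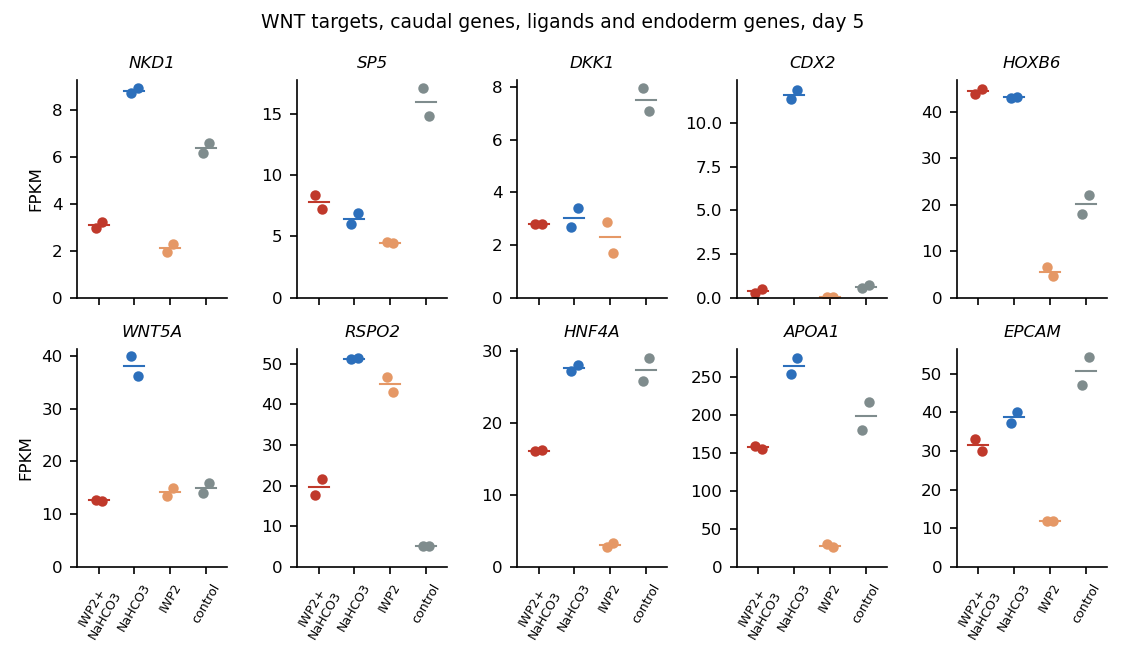
FPKM in every library of day 5 of WNT targets, caudal and HOX genes, WNT ligands and endoderm genes, with IWP2 and NaHCO3, NaHCO3 alone, IWP2 alone and the control from left to right; points are libraries and lines the mean of 2. Of the 4 groups, HNF4A, APOA1 and EPCAM are lowest with IWP2 alone, and CDX2 stands at 11.4 and 11.9 FPKM with NaHCO3 alone and below 1 FPKM in the other 3.

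Of the 14 sarcomere genes 10 rose with IWP2 alone and 10 with NaHCO3 present, and 5 had a positive called difference and 2 a negative one. MYH6 was at 55.4 and 55.95 FPKM with IWP2 alone, against 3.52 and 2.8 in the control (log2 fold change 4.14), and the difference was 3.90 (SE 0.467, adjusted p = 1.92e-05). The end level with IWP2 and NaHCO3, 26.5 and 27.1 FPKM, was below that with IWP2 alone, while NaHCO3 alone was near zero and the control was not. With limma on the log2(FPKM + 1) scale the difference was 0.895, which passed the adjusted p (0.00363) but not the fold minimum. MYL7 was at 365 and 388 FPKM with IWP2 and NaHCO3, at 747 and 597 FPKM with IWP2 alone and at 411 and 421 FPKM in the control, so that IWP2 with NaHCO3 did not exceed the control (difference between effects 1.66, adjusted p = 0.00576). SMYD1 was at 36.7 and 40.98 FPKM with IWP2 alone, UNC45B at 30.4 and 32.6 FPKM and NKX2-6 at 111 and 115 FPKM, each above its level with both agents, and the differences between effects were 7.76, 5.79 and 4.27. ACTN2 (1.57) lost its difference without the second NaHCO3 library (1.11, adjusted p = 0.0869). TBX5 stood apart from these, since its level with IWP2 and NaHCO3 (3.61 and 4.36 FPKM) was above that with IWP2 alone (1.87 and 2.16 FPKM), with a difference of 2.36 (adjusted p = 0.000457). WT1 likewise was highest with both agents, against 1.37 and 0.76 FPKM with IWP2 alone and 0.24 and 0.79 FPKM in the control.

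On day 3 the same addition of IWP2 to NaHCO3 called 318 genes of the set (2.25%), 124 rising (0.878%) and 194 falling (1.37%). Called on both days in the same direction were 117 genes, 16.8% of the 696 and 36.8% of the 318, and 23 were called in opposite directions. The effect differed between day 5 and day 3 for 708 genes (5.01%), 375 positively (2.65%) and 333 negatively (2.36%). On day 3 the falls included 7 of 12 feedback targets (median -1.32) and 9 of 12 caudal and HOX genes (median -2.45). NKD1 was at 10.1 and 9.03 FPKM with IWP2 and NaHCO3, against 55.9 and 52.1 FPKM with NaHCO3 alone, and DKK1 at 0.98 and 1.1 FPKM with both agents, against 27.4 and 29.8 FPKM with NaHCO3 alone. AXIN2 was at 5.88 and 5.44 FPKM with both agents, against 16.8 and 16.99 FPKM with NaHCO3 alone. For DKK1 and SP5 the difference between the days was 4.62 (SE 0.388, adjusted p = 2.52e-07) and 1.72 (adjusted p = 0.000114). CDX2 fell on both days, by log2 fold changes of -6.08 on day 3 and -5.02 on day 5, whereas HOXB6 fell on day 3 (0.45 and 0.27 FPKM with both agents, against 10.2 and 7.92 FPKM with NaHCO3 alone) and was not called on day 5, a difference of 4.67.

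On day 3, 1 of the 14 sarcomere genes rose and 1 fell. MYH6 was then at 0.01 and 0.1 FPKM with IWP2 and NaHCO3 and at 0.22 and 0.1 FPKM with NaHCO3 alone, giving a difference between the days of 9.61 (adjusted p = 2.25e-07). TBX20, MEF2C and HAND2 rose on day 3 (log2 fold changes 2.15, 2.16 and 1.03). On day 5 MEF2C rose as well, and the call of TBX20 did not hold when any single day 5 library of its contrast was left out. HAND2 was not called on day 5, at 69.98 and 73.5 FPKM with both agents, against 85.9 and 80.9 FPKM with NaHCO3 alone. Of the 17 matrix genes, 2 fell on day 3, with 6 negative called differences between the days. CYP26A1, RP11-256I9.2, SLC39A2 and TRPA1 fell on day 5 and had no call on day 3, with differences of -3.37, -4.80, -3.87 and -5.68. GFRA3, a receptor of the GDNF family, rose on day 3 (3.12) and fell on day 5 (-2.28), a difference of -5.40.

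On later days, in the other table and without a test, MYH6 and TNNT2 were again higher with IWP2. MYH6 was at 74.6 and 83.97 FPKM on day 7 with IWP2 and NaHCO3, against 17.7 and 1.07 FPKM with NaHCO3 alone, and on day 11 at 13.5 and 12.3 FPKM with both agents, against 1.0 and 1.15 FPKM with NaHCO3 alone. The 2 NaHCO3 libraries of day 7 were far apart for this gene. TNNT2 was at 45.04 and 48.4 FPKM on day 7 with IWP2 and NaHCO3, against 15.3 and 14.5 FPKM with NaHCO3 alone, and on day 11 at 35.6 and 33.4 FPKM with both agents, against 8.19 and 8.16 FPKM with NaHCO3 alone. TBX5 was at 17.1 and 18.7 FPKM on day 7 with both agents, against 0.97 and 0.57 FPKM with NaHCO3 alone, and WT1 at 15.1 and 15.3 FPKM with both, against 0.11 and 0.13 FPKM with NaHCO3 alone. The groups did not overlap in any of these. On day 5 such non-overlap held for 66.5% of the gene set, and its share on later days was not computed. NPPA, the atrial natriuretic peptide gene, too low to be in the set on day 5, was at 4.46 and 4.27 FPKM on day 11 with IWP2 and NaHCO3 and was listed at 0 in both libraries with NaHCO3 alone. COL3A1 was at 1876 and 1898 FPKM on day 11 with IWP2 and NaHCO3, against 3796 and 3905 FPKM with NaHCO3 alone. AFP reached 3109 and 2934 FPKM on day 11 with IWP2 and NaHCO3, against 2888 and 2288 FPKM with NaHCO3 alone. NKD1 was lower with IWP2 and NaHCO3 on day 11 (0.29 and 0.39 FPKM, against 5.67 and 6.01 FPKM with NaHCO3 alone), while DKK1 was higher (28.6 and 29.4 FPKM with both agents, against 2.86 and 2.51 FPKM with NaHCO3 alone).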

How the data were processed

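RNA was sequenced from H1 cultures, and the authors deposited gene counts and FPKM (scaled to gene length and library size) side by side. Per the submitters' processing notes, cutadapt 1.9.1, HISAT2 2.0.1, HTSeq 0.6.1 and GRCh37 were used; strandedness is not given in the sources used here. Libraries were grouped by their labels. Deposited counts of days 3 and 5 (24 libraries in 12 groups, 14794134 to 22796553 counts each) were fitted together in R 4.3.3 with edgeR 4.0.16: TMM scaling, 1 mean per group, robust quasi-likelihood test and Benjamini-Hochberg adjustment over 17286 genes that passed the low-count filter. A call needed an adjusted p under 0.05 and a log2 fold change of at least 1. Contrasts were IWP2 with NaHCO3 over NaHCO3 alone on day 5 and on day 3, IWP2 alone over control, and the differences between these effects. The SE of a fold change was taken from the test statistic. Counting intervals are exact binomial ones at the 95% level, and a floor of 3 counts per library was used against 0; both cover counting error only.

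FPKM, which the authors scaled per library, were used as levels and for the 1 FPKM minimum. Days 7 and 11 and undifferentiated cells come from a table normalized separately and were not tested. Genes and lists were chosen with earlier results of these data known. Genes named are a panel of 49, the 15 largest rises and falls of at least 5 FPKM in the higher group without overlap, up to 4 called and 2 uncalled genes per list, and the 6 largest differences in each direction; further genes given to complete a list's count were named after their values were seen. A few genes that these rules select are counted in their lists but not reported here by name. Alternatives were DESeq2 1.42.0, its size factors, limma 3.58.1 on log2(FPKM + 1) and log2(FPKM + 0.1), no low-value filter, smaller sets of libraries or genes, a replicate block, no fold minimum and leaving out each library. The fits were tested on simulated data.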

Additional observations from a re-analysis of the deposited data

Results flagged for a closer look

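The IWP2 effect differed with and without NaHCO3 for 556 genes, and between day 5 and day 3 for 708 genes, each by a test of the difference itself in the edgeR fit (adjusted p under 0.05 and a log2 difference of at least 1). A positive value means a more positive effect with NaHCO3, or on day 5.

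With against without NaHCO3, the log2 differences of WNT and streak genes were 2.04 for SP5, 1.52 for DKK1, 2.06 for EOMES, 2.30 for WNT6, -1.59 for WNT5A and -4.58 for RSPO2. Those of posterior genes were -5.40 for CDX1, 1.81 for HOXB6 and -3.52 for HOXB-AS3. The CDX1 difference was lost without the first IWP2 library (-4.48, adjusted p = 0.269). Heart genes gave 2.36 for TBX5, 1.08 for GATA4, 3.90 for MYH6, 1.66 for MYL7, 1.57 for ACTN2, 7.76 for SMYD1, 5.79 for UNC45B and 4.27 for NKX2-6. GATA4 dropped under the fold minimum without the second IWP2 with NaHCO3 library (0.980) or the first control library (0.999). The non-coding gene beside NKX2-6 gave 4.22, lost when any of 6 libraries was left out, with adjusted p between 0.0593 and 0.194. The epicardial gene WT1 gave 6.46 and ATOH1 8.39. ATOH1 had no counts in the NaHCO3 libraries of day 5, so the size of its fitted difference is not well measured.

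Endoderm and epithelial genes gave 2.50 for FOXA2, 2.34 for HNF4A, 2.96 for TTR, 2.04 for APOA1, 1.73 for EPCAM and 1.26 for CDH1. DUSP6, the ERK phosphatase, gave 3.20, COL6A1 -1.29 and SLC2A1 -1.03. TRPA1 gave -6.51, the same size as its fall with NaHCO3 present, and -4.96 without the second IWP2 library, where the call was lost. The levels of TRPA1 and CDX1 without NaHCO3 are not given here, and a gene near zero there could not fall. RERG, a RAS-related growth inhibitor, gave -5.26, GFRA3 -4.74 and RPRM, a p53-induced cell cycle gene, -4.03.

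Between day 5 and day 3, the differences were 9.61 for MYH6, 9.21 for ATOH1, 11.62 for SMYD1, 4.93 for C7, 8.64 for AC105227.1 and 5.28 for LGI1. The ATOH1 value again rests on no counts with NaHCO3 alone on day 5. SMYD1 rested on near-zero counts on day 3, and without the second NaHCO3 library of day 3 the value was 7.22 with an adjusted p of 1. WNT targets and posterior genes gave 4.62 for DKK1, 1.72 for SP5 and 4.67 for HOXB6, and the ligand gene WNT11 -1.75. Negative differences were -5.68 for TRPA1, -4.80 for RP11-256I9.2, -3.87 for SLC39A2, -3.37 for CYP26A1, -5.40 for GFRA3 and -3.43 for VEGFC, the lymphatic growth factor. VEGFC lost its call without the first IWP2 with NaHCO3 library of day 3 (-2.92, adjusted p = 0.153) or the first NaHCO3 library of day 3 (-2.77, adjusted p = 0.0731). Groups of 2 libraries are too small for a test of single outlying values.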

How the results depend on the processing

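No result of those recomputed changed direction among called genes. Of 219 named genes 118 were called on day 5, and 88 of the 118 kept call and direction under every alternative. The 696 calls became 690 with DESeq2 (674 of the same genes), 695 with its size factors, 625 with limma on log2(FPKM + 0.1), 707 with no low-value filter, 703 on the gene set alone, 737 on day 5 alone and 764 on the 4 libraries alone. Limma on log2(FPKM + 1), which shrinks the change of low genes, called 406 (223 rose, 183 fell), 149 on day 3 (54 rose, 95 fell) and 511 with IWP2 alone (151 rose, 360 fell). With no fold minimum the counts were 1826 (835 rose, 991 fell), 1111 on day 3 (475 rose, 636 fell), 2274 with IWP2 alone (961 rose, 1313 fell), 858 for the difference with NaHCO3 (247 negative) and 1567 between days (821 positive, 746 negative).

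Leaving out each library gave 581 to 618 calls (291 to 304 rose, 290 to 316 fell), 425 to 525 for the difference with NaHCO3 (342 to 426 positive, 83 to 99 negative), 544 to 637 between days (308 to 353 positive, 224 to 313 negative), 265 to 286 on day 3 (88 to 118 rose, 161 to 177 fell) and 776 to 841 with IWP2 alone (216 to 235 rose, 541 to 613 fell). A lone library left in a group is then assumed to vary like the other groups. A fit with the replicate number as a block called 692 (336 rose, 356 fell), 561, 713, 317 and 850 in the same order; deviations of same-numbered libraries correlated at -0.0121, 0.0681 and 0.075, so the numbers were not taken as pairs. Depth limits genes near zero: those with 1 to 3 counts in a group carry wide counting intervals.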

Other observations

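Genes outside the lists, chosen after their values were seen, also changed on day 5. Muscle genes JPH2, which joins surface and reticulum membranes, MYLK3, the cardiac myosin light chain kinase, and RBM20, a splicing regulator of titin, rose by log2 fold changes of 1.15, 1.05 and 1.23. JPH2 was at 6.25 and 6.89 FPKM with IWP2 and NaHCO3, against 2.93 and 2.73 FPKM with NaHCO3 alone.

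Basement membrane collagens fell with the other matrix genes: COL4A1 was at 44.8 and 48.4 FPKM with IWP2 and NaHCO3, against 106 and 112 FPKM with NaHCO3 alone (log2 fold change -1.29), and COL4A2 at 35.5 and 37.4 FPKM with IWP2 and NaHCO3, against 92.7 and 96.9 FPKM with NaHCO3 alone (log2 fold change -1.44). APLNR, the apelin receptor of early mesoderm, was at 65.2 and 63.4 FPKM with IWP2 and NaHCO3, against 155 and 167 FPKM with NaHCO3 alone (log2 fold change -1.39). SLN, sarcolipin, a regulator of the calcium pump of atrial muscle, fell, unlike most sarcomere genes, at 5.24 and 6.95 FPKM with IWP2 and NaHCO3, against 33.4 and 32.1 FPKM with NaHCO3 alone (log2 fold change -2.49). IRF1 and ISG15, interferon-induced genes, fell by log2 fold changes of -1.57 and -1.34.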
